A study of Homo sapiens with 4 samples.

Results

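Of the 60721 genes in the deposited count table, 10 are described here: LBH and 9 genes known as direct or feedback targets of Wnt signalling (AXIN2, LEF1, TCF7, NKD1, NKD2, DKK1, RNF43, ZNRF3 and SP5). The set was chosen by the higher level of LBH after knockdown of TLN1 in these same libraries, so the difference of LBH between the groups is given as a description, with no test. The other 9 genes were listed for their place in the pathway, with earlier results of these data known. All 10 had a row in the count table, and 8 had a row in the deposited log2 CPM table. NKD2 and SP5 had none there.

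RNA was measured by poly(A) sequencing in Hs578T, an established human breast carcinoma cell line. All cells received GFP together with RNA at 1.6 µM, which was a non-targeting control in the SCR group and an siRNA against TLN1 in the siTLN1 group, and were collected after 48 h. TLN1 encodes talin-1, which couples integrins to actin. Each group held 2 libraries, called a and b here, which the study's design calls biological replicates. The libraries held between 31854322 and 46353297 counts. Levels below are CPM, each gene's count relative to the size of its library after scaling with TMM factors, and each SD is that of the 2 libraries of a group.

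Whether the labels held was read from TLN1 itself, which had 868 and 874 CPM in SCR against 51.9 and 44.8 CPM in siTLN1. The labels call these cells epithelial. Of 8 epithelial markers, EPCAM, KRT19 and ESRP1 were at or under 0.144 CPM in every library, and CDH1 was between 0.409 and 0.851 CPM. KRT18 was between 104 and 131 CPM, KRT8 between 15.1 and 20.7, KRT7 between 6.29 and 9.58, and CLDN4 between 1.0 and 1.6. VIM, a mesenchymal marker, was between 3811 and 3968 CPM. Of 6 mesenchymal markers, edgeR called 2 lower in siTLN1, against 3.77% of all tested genes, and none higher. FN1 (log2 fold change 0.25), VIM (0.02), ZEB1 (−0.09) and COL1A1 (−0.19) were not called. CDH2, which encodes N-cadherin, went from 569 and 535 CPM in SCR to 303 and 293 CPM in siTLN1 (adjusted p = 2.45e-05), and SPARC, a matrix protein, had a log2 fold change of −0.48 (adjusted p = 0.0161). Their part in the results below was not tested. The summed level of 6 markers of leukocytes and endothelium was between 3.87 and 5.63 CPM. An exact permutation test of 2 libraries against 2 cannot go below p = 0.333, so p values come from edgeR's quasi-likelihood test fitted over 16137 genes. Of these, 980 had a Benjamini-Hochberg adjusted p under 0.05, a background of 6.07%, and 2.30% were called higher in siTLN1. Without siTLN1 library a, 347 genes were called.

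In the canonical Wnt pathway, Wnt proteins bind Frizzled and LRP5/6 receptors, which stops the destruction of beta-catenin in the cytoplasm. Beta-catenin then enters the nucleus and joins the DNA-binding factors LEF1, TCF7 and their relatives. Many of the genes switched on in this way encode brakes on the pathway itself: AXIN2 rebuilds the destruction complex, NKD1 and NKD2 bind Dishevelled, DKK1 blocks LRP5/6 from outside the cell, and RNF43 and ZNRF3 remove Frizzled from the surface. LBH is a small nuclear protein that acts as a transcription cofactor, and it is known as a Wnt target in the basal cells of the mammary gland.

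The core of the DNA word known to bind TCF and LEF factors was looked for in the promoters of these genes. RefSeq windows of 300 bases (250 before to 50 after an annotated start, GRCh38.p14) were matched for 7 of the 10 genes, in 9 windows. AXIN2, NKD1 and ZNRF3 were not matched. The words searched were CTTTGA and CTTTGT, on both strands, and 26.2% of 35116 RefSeq windows of this length held at least 1 of them. The 4 windows printed here are those of LBH, of LEF1, whose RNA rose, of DKK1, which is the most abundant member per exon length, and of SP5, which had no count. Each is written 5′ to 3′ on the gene's strand, and capitals mark the words on either strand (TCAAAG is CTTTGA on the other strand).
LBH, chr2:30231284-30231583, plus strand: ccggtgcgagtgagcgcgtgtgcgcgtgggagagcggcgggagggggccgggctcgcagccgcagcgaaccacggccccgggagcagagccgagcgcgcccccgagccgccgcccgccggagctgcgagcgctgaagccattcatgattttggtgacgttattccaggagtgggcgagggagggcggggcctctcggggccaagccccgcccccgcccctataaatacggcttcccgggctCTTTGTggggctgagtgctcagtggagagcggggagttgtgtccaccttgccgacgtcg
LEF1, chr4:108166252-108166551, minus strand: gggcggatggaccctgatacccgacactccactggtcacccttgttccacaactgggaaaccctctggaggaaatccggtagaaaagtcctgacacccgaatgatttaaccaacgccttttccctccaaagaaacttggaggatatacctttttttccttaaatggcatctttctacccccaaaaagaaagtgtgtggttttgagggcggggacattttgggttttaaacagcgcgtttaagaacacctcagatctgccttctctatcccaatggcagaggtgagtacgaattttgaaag
DKK1, chr10:52314031-52314330, plus strand: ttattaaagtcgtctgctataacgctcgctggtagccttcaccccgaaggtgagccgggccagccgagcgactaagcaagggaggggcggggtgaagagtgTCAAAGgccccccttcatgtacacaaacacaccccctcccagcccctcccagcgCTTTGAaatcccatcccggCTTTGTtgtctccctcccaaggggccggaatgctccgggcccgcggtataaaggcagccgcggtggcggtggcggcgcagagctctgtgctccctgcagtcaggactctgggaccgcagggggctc
SP5, chr2:170715087-170715386, plus strand: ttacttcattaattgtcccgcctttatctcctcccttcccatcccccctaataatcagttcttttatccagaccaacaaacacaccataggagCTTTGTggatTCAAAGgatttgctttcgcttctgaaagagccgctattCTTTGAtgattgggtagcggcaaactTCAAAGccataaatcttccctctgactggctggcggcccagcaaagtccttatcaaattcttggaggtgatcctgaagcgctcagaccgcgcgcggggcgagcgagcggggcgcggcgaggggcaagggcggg

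The LBH window held 1 word, CTTTGT, whose first base lies at −9 from the start. SP5 held 4 words, a number reached by 0.111% of all windows, and DKK1 held 3, reached by 0.886%. The windows of LEF1 and NKD2 held none. That of LEF1 lies inside the counted gene, whose 5′ end is at 108168956, so its outermost start was not searched. Both windows of TCF7 and the second of RNF43 also lie inside their genes. Of the 2 windows of TCF7, the second held 2 words, and each of the 2 windows of RNF43 held 1. These counts describe the letters of the windows and show nothing of what binds there.

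**Figure D1:**
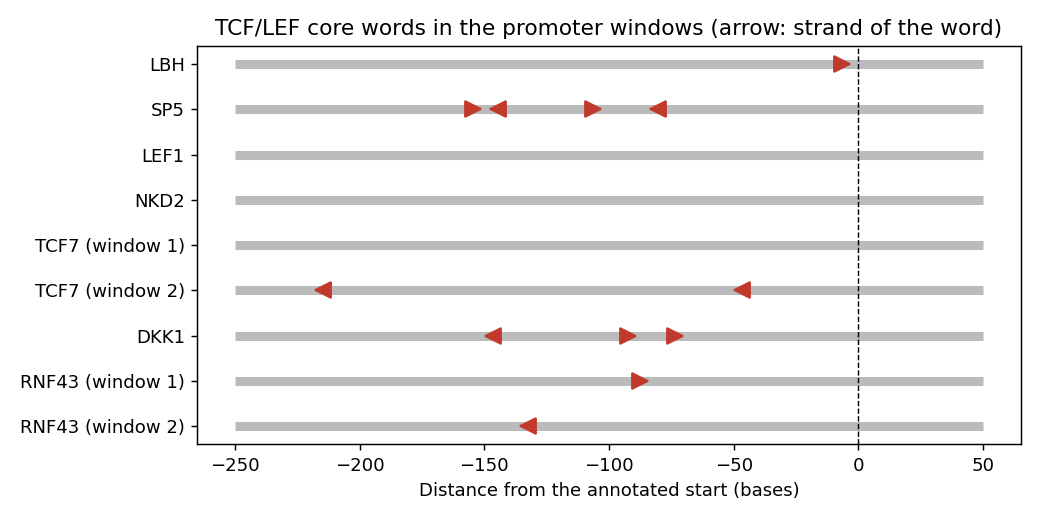
Positions of the words CTTTGA and CTTTGT (red arrows, pointing along the strand of the word) in the RefSeq promoter windows of 7 members. The x axis is the distance from the annotated start in bases, and each grey bar is 1 window of 300 bases. SP5 holds 4 words and DKK1 holds 3, while LBH holds 1 just before its start.

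LBH (ENSG00000213626.13; GRCh38, chromosome 2, 30231534 to 30323730, plus strand) had 698 and 732 counts in SCR against 1640 and 2289 counts in siTLN1. After scaling these were 22.0 and 21.0 CPM in SCR against 45.1 and 48.7 CPM in siTLN1. Both siTLN1 libraries were thus above both SCR libraries, with a gap far wider than the spread within either group. This is a 2.18-fold higher level, or 1.13 on the log2 scale (SE 0.10). None of its 4532 exon bases lies in an exon of another gene of the counting annotation, so no other gene competes for its reads. In these bulk libraries, more RNA in each cell and more cells that express a gene cannot be told apart.

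Among the inhibitors that act inside the cell, NKD1 rose. NKD1 (ENSG00000140807.7; chromosome 16, 50548396 to 50649249, plus strand) had 57 and 51 counts in SCR and 177 and 183 in siTLN1. These counts correspond to 1.79 and 1.46 CPM in SCR against 4.86 and 3.89 CPM in siTLN1, with no overlap between the groups. This 2.68-fold rise, 1.42 on the log2 scale (SE 0.21), had a Benjamini-Hochberg adjusted p of 0.000489 in the edgeR fit of all genes. This was the 43rd largest of the 16137 log2 fold changes, above that of LBH, which ranked 101st. Whether NKD1 and LBH differ in this was not tested. Leaving out 1 library at a time gave log2 fold changes of NKD1 from 1.26 to 1.58, each with an adjusted p of 0.00641 or less.

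NKD2 (ENSG00000145506.14; chromosome 5, 1008802 to 1038943, plus strand), the paralog of NKD1, had 3 and 9 counts in SCR and 8 and 15 in siTLN1, too few to enter the test. Summed over each group, its level was 0.180 CPM in SCR (95% Poisson interval 0.0931 to 0.315) and 0.276 CPM in siTLN1 (0.175 to 0.414). These intervals cover counting error only. They overlap, which is no test of a difference. Without the filter on low counts, the log2 fold change of 0.62 (SE 0.56) had an edgeR adjusted p of 0.728.

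AXIN2 (ENSG00000168646.13; chromosome 17, 65528563 to 65561648, minus strand), often taken as the standard readout of canonical Wnt activity, had 5.95 and 7.06 CPM in SCR against 8.02 and 7.32 CPM in siTLN1. Both siTLN1 libraries were above both SCR libraries, but the gap between the nearest of them was smaller than the spread within either group. The log2 fold change of 0.23 had a standard error of 0.15, and the adjusted p by edgeR was 0.412. Of the exon bases of AXIN2, 25.2% also lie in exons of another gene on the same strand, and reads there may not have been assigned, so its level is uncertain.

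DKK1 (ENSG00000107984.10; chromosome 10, 52314281 to 52318042, plus strand), the secreted inhibitor, had 64.3 and 65.0 CPM in SCR against 60.4 and 52.2 CPM in siTLN1. Both siTLN1 libraries were below both SCR libraries, and library b more so than library a. The log2 fold change of −0.20 (SE 0.10) was not called (edgeR adjusted p = 0.282). An antisense gene, PRKG1-AS1, shares 10.2% of its exon bases, and the counting used no strand option, so reads of the pair cannot be told apart there.

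The 2 membrane ubiquitin ligases differed in level. ZNRF3 (ENSG00000183579.16; chromosome 22, 28883572 to 29057488, plus strand) had 29.5 and 29.2 CPM in SCR against 36.7 and 34.4 CPM in siTLN1, with no overlap. Its log2 fold change of 0.28 (SE 0.10) was not called by edgeR (adjusted p = 0.120). RNF43 (ENSG00000108375.12; chromosome 17, 58352500 to 58417595, minus strand) had 1.54 and 1.87 CPM in SCR against 1.59 and 1.36 CPM in siTLN1, and the libraries of the groups overlapped. Its log2 fold change of −0.22 (SE 0.24) had an edgeR adjusted p of 0.683. Other genes on the same strand, SUPT4H1 among them, share 59.6% of the exon bases of RNF43. The antisense gene TSPOAP1-AS1 shares 20.3% of them, and the counting used no strand option, so the counts of RNF43 are uncertain.

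Of the transcription factors, LEF1 rose. LEF1 (ENSG00000138795.10; chromosome 4, 108047545 to 108168956, minus strand) had 25.1 and 23.9 CPM in SCR against 31.4 and 34.1 CPM in siTLN1. The groups did not overlap, and the 1.34-fold rise, 0.42 on the log2 scale (SE 0.10), had an edgeR adjusted p of 0.0225. The call was lost without SCR library b (adjusted p = 0.0689), without siTLN1 library a (0.0883) and without siTLN1 library b (0.156), each with a log2 fold change between 0.36 and 0.48. It held without SCR library a (adjusted p = 0.0171). The antisense gene LEF1-AS1 shares 5.20% of its exon bases, so part of its count is uncertain.

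TCF7 (ENSG00000081059.20; chromosome 5, 134114681 to 134151865, plus strand), which encodes a close relative of LEF1, had 74.1 and 78.1 CPM in SCR against 93.8 and 94.8 CPM in siTLN1. Its siTLN1 libraries lay close to each other, and both were above the SCR libraries. The log2 fold change of 0.31 (SE 0.09) missed the threshold, with an edgeR adjusted p of 0.0584. DESeq2 gave 0.31 with an adjusted p of 0.0471. Gene-level counts do not separate the long and short forms of TCF7 and LEF1, of which the short ones lack the part that binds beta-catenin.

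SP5 (ENSG00000204335.4; chromosome 2, 170715337 to 170718078, plus strand), a zinc finger repressor that is strongly induced by Wnt signalling in many stem cells and tumour cells, had 0 counts in all 4 libraries. Taking 3 counts as the limit that a count of 0 allows, its level was under 0.0944, 0.0861, 0.0824 and 0.0638 CPM in SCR libraries a and b and siTLN1 libraries a and b. No fold change can be given for it.

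**Figure D2:**
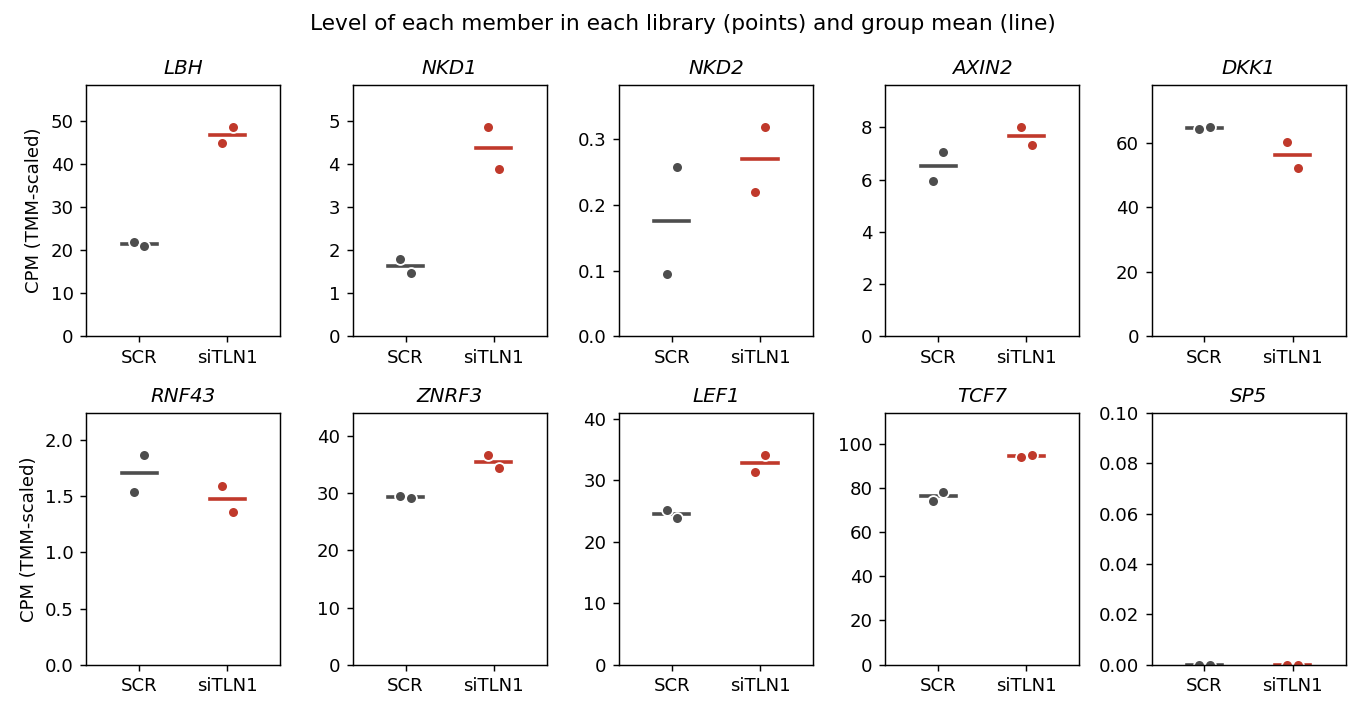
Level of each of the 10 genes in CPM (y axis, from 0, a separate scale for each gene) in the SCR (grey) and siTLN1 (red) libraries. Points are single libraries and lines are group means; LBH and NKD1 more than double, AXIN2, ZNRF3, LEF1 and TCF7 are higher by smaller amounts, DKK1 is lower and SP5 lies at 0.

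Besides LBH, 7 of the other 9 genes passed the filter on low counts, and 2 of these 7 (NKD1 and LEF1) were called higher, against 2.30% of all tested genes. None was called lower in this fit, which had no replicate block; the background for that direction was 3.77%. The libraries of the groups did not overlap for 6 of the 7: AXIN2, LEF1, TCF7, NKD1 and ZNRF3 were higher in siTLN1 and DKK1 was lower. Over all tested genes, 23.9% did not overlap in the higher direction and 24.6% in the lower. The median log2 fold change of the 7 was 0.28, against 0.0033 over all tested genes. Since these genes were listed with results known and few passed, the counts describe them and support nothing further.

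Levels can be set side by side between genes after division by exon length. In SCR the order was DKK1 (29.1 CPM per kilobase of exon), TCF7 (7.54), LBH (4.74), LEF1 (4.58), ZNRF3 (4.20), AXIN2 (1.24), RNF43 (0.227), NKD1 (0.0938), NKD2 (0.0606) and SP5 at 0. Within this order, the libraries of LBH and LEF1 overlapped, and so did those of NKD1 and NKD2. The other neighbours were separate. In siTLN1, LBH stood at 10.3 ± 0.571 CPM per kilobase (SD, n = 2), above TCF7 at 9.34 ± 0.0746, and NKD1 at 0.252 ± 0.0394 stood above RNF43 at 0.197 ± 0.0218. The remaining order was the same. The exon length of NKD1 is 17359 bases, the longest of the set, so its level per kilobase depends on that annotated length. The order of LBH and TCF7 also depends on their annotated lengths, 4532 and 10093 bases. Without division by length, TCF7 stood above LBH in siTLN1 as well (means of 94.3 and 46.9 CPM). Other genes on the same strand share 59.6% of the exon bases of RNF43 and 25.2% of those of AXIN2. Reads there may not have been assigned, so their levels per kilobase may be too low. The order of NKD1 and RNF43 is therefore uncertain in both groups.

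**Figure D3:**
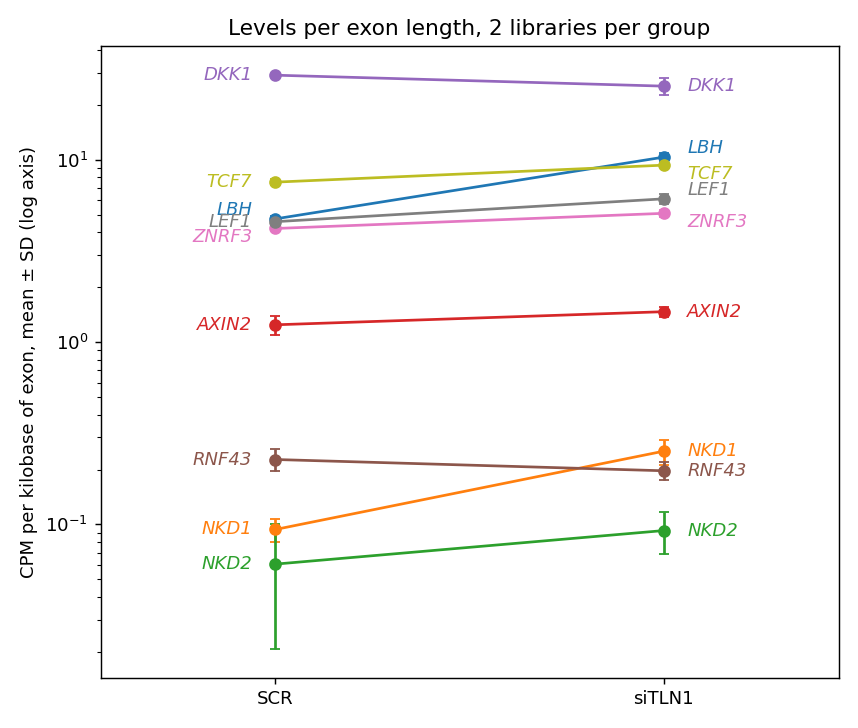
Mean level per kilobase of exon (y axis, log scale, in CPM per kilobase; bars are SD over 2 libraries) of the 9 members with counts, in SCR and siTLN1. The lines of LBH and TCF7 cross, as do those of NKD1 and RNF43, while DKK1 stays highest. The level of RNF43 is uncertain, because it shares exon bases with other genes. In CPM without exon length, TCF7 is above LBH in both groups.

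The profile of LBH over the 4 libraries was compared with those of the 10485 other genes whose mean reached 5 CPM. Likeness was the Euclidean distance between log2 CPM values centred on each gene's mean. The 5 nearest genes were HHIP (distance 0.225), LGR5 (0.244), NFATC2 (0.250), VSNL1 (0.286) and KRT80 (0.298). LGR5 encodes a receptor for R-spondins, which protect Frizzled from RNF43 and ZNRF3, and it is itself a Wnt target. It had 10.7 and 9.85 CPM in SCR against 19.9 and 19.0 CPM in siTLN1. HHIP, a Hedgehog-binding inhibitor, had 91.2 and 102 CPM against 205 and 193 CPM. The distance takes in the size of the difference, so genes near LBH are genes that were higher by a like amount, and 4 libraries are too few to say more.

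**Figure D4:**
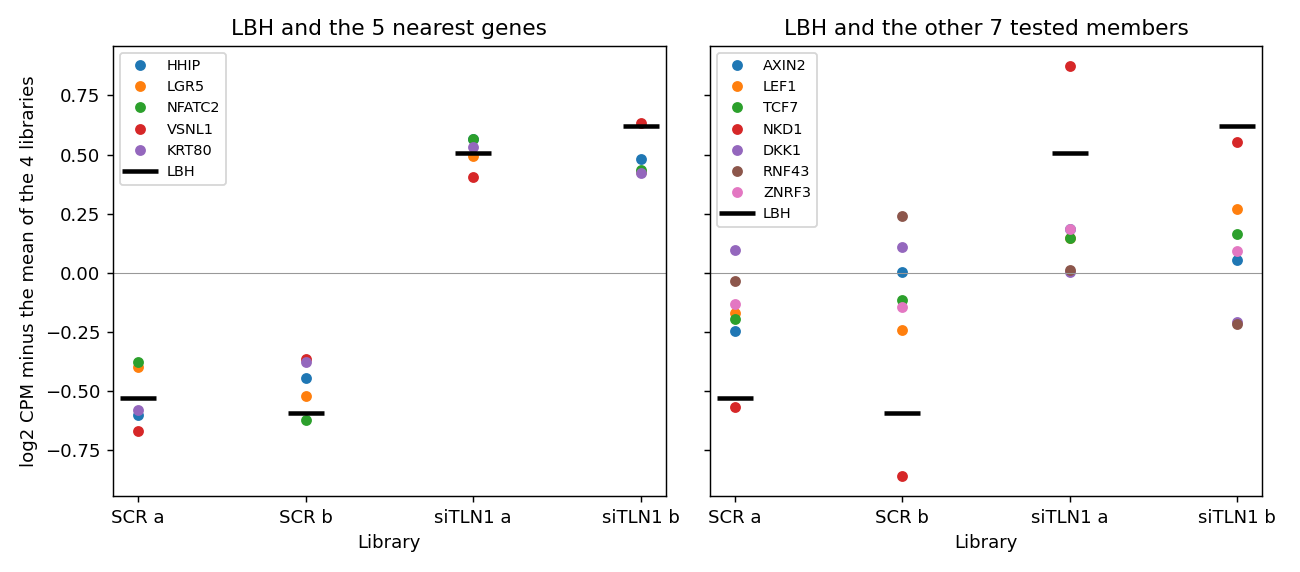
Centred log2 CPM (y axis, difference from the mean of the 4 libraries) in each library (x axis) for LBH (black bars) with its 5 nearest genes (left) and with the 7 other tested members (right). The nearest genes lie close to LBH in every library, whereas among the members NKD1 alone spans a wider range than LBH.

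In the genome, 14 other annotated genes start within 500 kb of the start of LBH, and 3 of them were tested. ALK, YPEL5 and LCLAT1 had log2 fold changes of 0.24, 0.33 and 0.23, with edgeR adjusted p of 0.758, 0.0715 and 0.213, so none of these neighbours was called. Both siTLN1 libraries were above both SCR libraries for YPEL5 and LCLAT1, as for 23.9% of all tested genes. The libraries of the groups overlapped for ALK.

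The rest of the pathway was read from 6 lists written from textbook knowledge, with earlier results of these data known. They held 135 genes, of which 102 were tested. Of these, 11 were called higher and 5 lower by edgeR at an adjusted p under 0.05, or 15.7% in all against the background of 6.07%. As for the members, this share describes the lists and supports nothing further. The median log2 fold change of the 102 was 0.05. Without siTLN1 library a, fewer genes of these lists were called, and a smaller share of the calls was higher. Both also held over all tested genes.

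Over all tested genes, 2.30% were called higher and 3.77% lower. Among ligands and the factors that secrete them, 2 of 12 tested were called higher and 1 lower. WNT7B went from 148 ± 18.4 to 198 ± 10.3 CPM (SD, n = 2), or 0.43 on the log2 scale. WLS, which carries Wnt proteins to the cell surface, had a log2 fold change of 0.37. WNT5B fell by 0.42 on the log2 scale. Among receptors, LGR5 (0.92) and FZD7 (0.41) were called higher and FZD6 (−1.26) lower, of 16 tested, as log2 fold changes. FZD6 went from 196 ± 18.4 to 81.9 ± 9.04 CPM (SD, n = 2), the largest change in either direction among the called genes of these lists.

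Of 11 secreted and membrane modulators tested, none was called higher and 2 were called lower, APCDD1 with a log2 fold change of −0.56 and SFRP2 with one of −0.54. APCDD1 is a membrane inhibitor that is also a Wnt target, and SFRP2 binds Wnt proteins outside the cell. None of the 23 cytoplasmic transducers tested, which include beta-catenin (CTNNB1), AXIN1, APC and GSK3B, was called, and their median log2 fold change was −0.02. Among 15 nuclear factors tested, the co-repressor TLE1 alone was called higher (log2 fold change 0.38). These counts stand beside 2.30% of all tested genes called higher and 3.77% lower, and lists this small support nothing further.

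Of 25 other described Wnt targets tested, 6 were called higher and 1 lower, against 2.30% and 3.77% of all tested genes. SOX4, a transcription factor, went from 62.6 ± 2.01 to 115 ± 5.11 CPM (SD, n = 2), or 0.88 on the log2 scale. EDN1, which encodes endothelin-1, had a log2 fold change of 0.85 and BMP4 one of 0.76. L1CAM, a cell adhesion molecule, fell by 0.74 on the log2 scale. The remaining 3 were TCF4 (0.56), SOX9 (0.48) and TNFRSF19 (0.38). Several of these genes are also known targets of pathways other than Wnt.

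**Figure D5:**
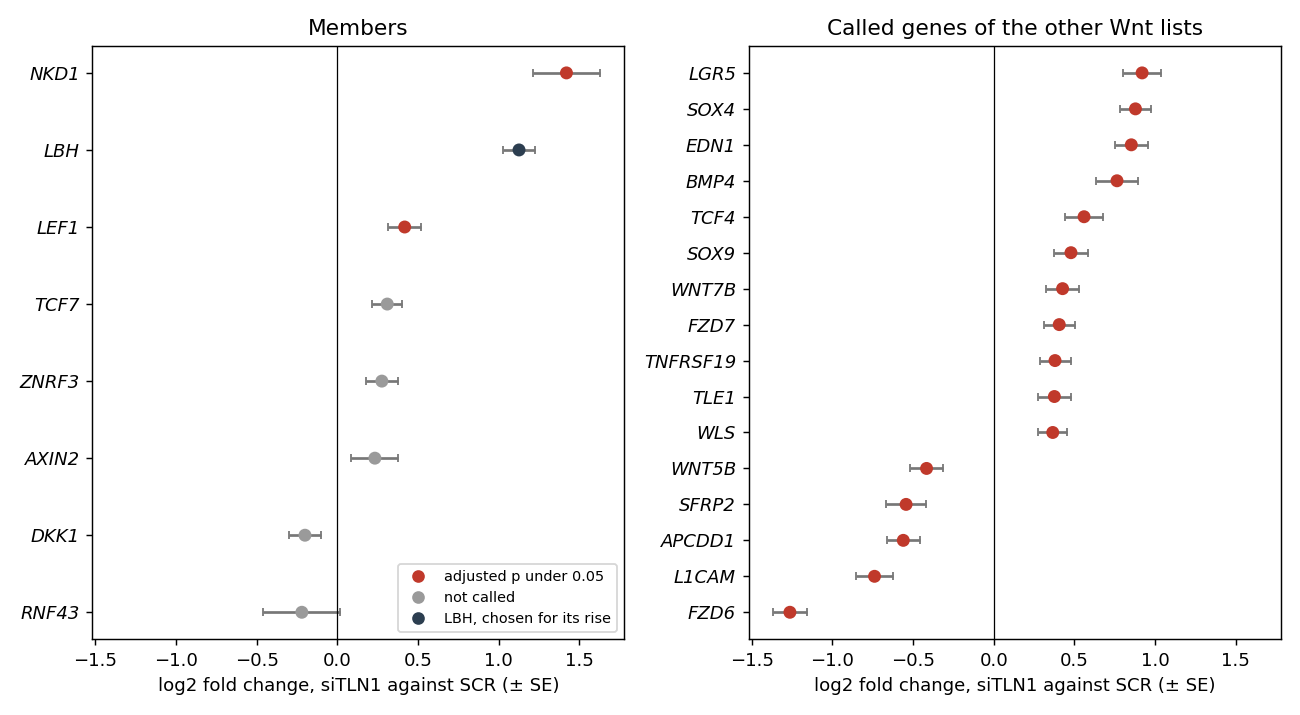
Fitted log2 fold change of siTLN1 against SCR (x axis, bars are standard errors) for the 8 members in the fit (left) and the 16 called genes of the other Wnt lists (right). Red marks an adjusted p under 0.05 by edgeR, grey marks genes not called, and LBH is shown apart; NKD1 and LBH lie highest and FZD6 lowest.

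Earlier results of these data pointed to the word GACAACA, whose presence in the 3′ UTR went with lower fold changes. In GENCODE 29 transcripts with the longest coding sequence, the 948 tested genes with it had a median log2 fold change of −0.10, against 0.01 for 11032 genes without it. The word was taken from these same data, so the medians describe it and are no separate support. Of the 10 members, the 3′ UTRs of NKD1 (2 copies), RNF43 (2) and TCF7 (1) hold it. LBH, AXIN2, LEF1, NKD2, DKK1, ZNRF3 and SP5 do not, in any annotated transcript. Of the annotated transcripts, 2 of 3 of NKD1, 4 of 8 of RNF43 and 7 of 24 of TCF7 hold the word. Gene-level counts do not separate these transcripts. The part of the word in the levels of the 3 genes was not tested.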

How the data were processed

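RNA from 2 SCR and 2 siTLN1 libraries was analysed. Per the file headers, the authors ran featureCounts 2.0.0 in paired mode, with no strand or multi-mapping option, on GENCODE 33 (GRCh38), which gave the deposited raw counts. The same deposited file lists other values, the exon length of each gene in bases. STAR 2.7.9a and edgeR 3.34.1 are named in the submitters' processing notes. The authors also deposited log2 CPM values for 16137 genes, and no label says how those were made. Their gene set equalled the one tested here. Log2 CPM computed here with edgeR from the filtered counts, after TMM scaling, reproduced them (largest difference 4.97e-14).

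Count columns name a group and carry a number, 6 for library a and 7 for library b of each group, which matches no label. Log2 CPM computed for libraries a and b equalled the deposited log2 CPM of labelled replicates 1 and 2 (largest difference 4.97e-14), so both numberings give the same pairs. No label says what same-numbered libraries share, and the edgeR test used no pairs. The number of per-sample columns left out was 0, as was that of entries without a gene. Symbols were matched by Ensembl ID without version.

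Genes were kept with filterByExpr (minimum count 10, minimum total 15), scaled by TMM and tested with edgeR 4.0.16 in R 4.3.3 (glmQLFit, robust, current rather than legacy method; glmQLFTest), with Benjamini-Hochberg adjustment and a threshold of 0.05. The study's design calls the libraries biological replicates, and nothing further shows separate cultures. The p values set the difference between the groups against the spread between these libraries. That spread, more than depth, limits abundant genes (biological coefficient of variation 0.0805).

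The members and lists were chosen with earlier results of these data known. The text names all members, TLN1, up to 4 called genes with the smallest p of each other Wnt list, the 5 genes most like LBH and tested genes starting within 500 kb of it. TCF4, SOX9, TNFRSF19, CDH2 and SPARC were named after their values were seen. The word GACAACA was also looked at after the data were seen.

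Alternatives were total counts only, RLE scaling, a mean of at least 10 counts, no filter, DESeq2 1.42.0, limma-voom (limma 3.58.1), limma-trend on the deposited log2 CPM, a replicate block, each library left out, and levels without exon length.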

Additional observations from a re-analysis of the deposited data

How the results depend on the processing

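With all 4 libraries, LBH and the 7 other members in the fit kept their direction under the 8 alternative fits. Of the values of those 7, 52 stayed on the same side of the threshold. The 4 that crossed it were TCF7 with DESeq2 and TCF7, DKK1 and ZNRF3 with the replicate block. LBH ran from 1.07 to 1.18 on the log2 scale when 1 library was left out. In those fits the lone library of a group is assumed to vary like the other group. They gave 347 to 1116 changed genes, 1 or 2 changed members other than LBH, and 10 to 17 changed genes of the other Wnt lists. The lowest of the counts of changed genes came without siTLN1 library a. Without exon length, LBH ranked 5th among the members in SCR, not 3rd. The cause of these changes was not tested.

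Whether the labels' replicate numbers pair the libraries was checked. Deviations of same-numbered libraries in the deposited log2 CPM correlated at 0.19 across genes, and at 0.54 among genes at 5 CPM or more, and the count columns carry a number, 6 or 7, that forms the same pairs. These 2 pairs are too few to establish a shared preparation, and no label states one. With the replicate block, limma-trend called 3645 genes (22.6%; 1709 higher and 1936 lower), 5 members other than LBH and 49 genes of the other Wnt lists (32 higher and 17 lower). The 5 members were LEF1, NKD1, TCF7 (adjusted p = 7.15e-05), ZNRF3 (0.00264) and, lower, DKK1 (0.0169). Low counts limit NKD2 and SP5.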
